A study of Mus musculus with 8 samples.

Results

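Cdx1, Cdx2, Cdx4 and Nkx1-2 are 4 transcription factor genes of the caudal end of the embryo, and they are 4 of the 55422 features counted in every library. They were found by their symbols among the features. The question addressed here is how their RNA is distributed over the cell groups of chimaeric mouse embryos, and how it differs between cells that lack the TET enzymes and host cells. Chimaeras were made by injecting Tet triple-knockout (Tet-TKO) ES cells into wild-type blastocysts. Embryos were pooled before the cells were sorted by tdTomato fluorescence, so a library mixes several embryos and replicates are libraries.

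The Tet-TKO cells lacked Tet1, Tet2 and Tet3, carried an H2B-tdTomato label and had a mixed C57BL/6J-129Sv background. They came from an ES cell line, so all Tet-TKO libraries share its origin. The WT host cells were the tdTomato-negative C57BL/6J cells of the same kind of embryo. Genotype, strain background, a history in culture and any difference in sex chromosomes therefore cannot be told apart in any comparison. At E8.5, Tet-TKO cells filled 4 libraries while host cells filled 2, and E7.5 had 1 library of each genotype. The sources used here do not say whether libraries of one genotype came from separate pools of embryos, so p-values measure only the spread between libraries.

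The 3 Cdx genes encode caudal-type homeodomain proteins, which act in the elongating tail end of the embryo downstream of Wnt, FGF and retinoid signals and upstream of the trunk Hox genes. Cdx2 is in addition required in the trophectoderm and specifies the intestine, and Cdx4 has a known role in embryonic blood formation. Nkx1-2 encodes a homeodomain protein that marks the caudal lateral epiblast and the preneural tube, including the bipotent cells that give rise to spinal cord and paraxial mesoderm.

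Cdx2 (ENSMUSG00000029646) lies on the minus strand at chr5:147300805-147307270 of GRCm38. The ParaHox relative Pdx1 lies 24957 bases from it. Cdx4 (ENSMUSG00000031326) is X-linked and lies on the plus strand at chrX:103321398-103330592. Nkx1-2 (ENSMUSG00000048528) lies on the minus strand at chr7:132594878-132599637, inside a long annotated form of Fgfr2 on the same strand and over the antisense gene Gm16764. The part of these overlaps in its counts was not tested.

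The promoters of Cdx4 and Cdx2 are shown because the RNA of Cdx4 was lower in Tet-TKO cells in several cell groups where that of Cdx2 did not pass the test. Each window runs 5′ to 3′ from 250 bases before the RefSeq start to 50 after it, 300 bases in all on GRCm38.p6. Capitals mark CpG dinucleotides, the sequence at which DNA methylation is placed and at which TET enzymes act.
Cdx4 promoter, plus strand of chrX:103321148-103321447: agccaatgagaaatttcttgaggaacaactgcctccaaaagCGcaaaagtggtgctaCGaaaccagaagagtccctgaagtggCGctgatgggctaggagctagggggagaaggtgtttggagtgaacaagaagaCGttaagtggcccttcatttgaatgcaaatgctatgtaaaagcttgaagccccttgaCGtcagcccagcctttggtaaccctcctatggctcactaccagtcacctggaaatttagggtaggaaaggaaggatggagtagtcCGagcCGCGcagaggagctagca
Cdx2 promoter, minus strand of chr5:147307200-147307499: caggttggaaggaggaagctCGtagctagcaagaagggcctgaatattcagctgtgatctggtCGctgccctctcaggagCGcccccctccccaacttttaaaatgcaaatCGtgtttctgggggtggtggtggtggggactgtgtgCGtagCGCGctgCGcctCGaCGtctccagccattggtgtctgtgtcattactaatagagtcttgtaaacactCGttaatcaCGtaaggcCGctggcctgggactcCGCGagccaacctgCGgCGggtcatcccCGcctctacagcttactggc

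The Cdx4 window held 8 CpGs and the Cdx2 window 18, against a median of 7 over the 32851 RefSeq promoters of the same length. The Nkx1-2 window, which is not printed, held 21. On both strands, the letters ATGCAAAT, an octamer bound by POU factors, occurred in the Cdx4 window and in the Cdx2 window, and in 1.74% of all promoters. The letters CCAAT occurred in the windows of Cdx2, Cdx4 and Nkx1-2 and in 37.4% of all promoters. Neither CTTTGA nor TTTATG occurred in any of these windows, while 16% and 11.9% of all promoters held them. No methylation was measured in these libraries, so the sequences are a description only. In separate single cells where methylation was measured, the paper found TET-dependent demethylation at distal elements and hardly any effect at promoters.

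Between 1008 and 9545 cells were kept per library, with 64958644 to 136734135 UMIs. tdTomato was counted at 71.5 to 145 CPM (UMIs of a gene per 1000000 UMIs of the library) in Tet-TKO libraries and at 0.444 to 0.938 CPM in WT host libraries. RNA of Tet1, Tet2 and Tet3 was still counted in Tet-TKO cells (at E8.5, Tet1 at 9.92 to 20.9 CPM against 20.4 and 22.6 in WT host libraries, Tet2 at 5.55 to 10.5 against 4.63 and 4.67, and Tet3 at 22.5 to 37.5 against 23.1 and 23.2), and these counts near the 3′ end do not test whether the protein is lost. Tet-TKO libraries 3 and 4 held fewer and deeper cells, with a median of 40404 and 68931 UMIs per cell, against 12178 to 18774 in the other E8.5 libraries. Libraries shared at most 28 barcodes. Cells were grouped without the 4 genes, and clusters took the name of a cell class, written as X-like, only where its marker genes were raised. Clusters 12 and 14 stayed unnamed. Cluster 12 was led by Hes3, Fgfbp3, Epha5 and Gbx2, and its caudal progenitor and spinal cord markers were too close to choose between. Cluster 14 was led by Hoxd1, Fgf10, Fendrr, Evx1 and Osr1.

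In WT host cells at E8.5 all 4 genes were highest in the caudal cell groups, but not all in the same one. Levels are CPM of the UMIs summed over the cells of a group, as the mean ± SD of 2 libraries, and each UMI stands for one captured 3′ end, so no length enters. Cdx4 was highest in caudal progenitor-like cells at 597 ± 29.6 CPM, followed by cluster 14 at 488 ± 40.6 and presomitic mesoderm-like cells at 325 ± 51.8. The ranges of the 2 libraries were separate between these 3 groups. Presomitic mesoderm-like cells overlapped cluster 12, at 275 ± 58.9 CPM.

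Cdx2 was likewise highest in caudal progenitor-like cells, at 454 ± 18.6 CPM. Cluster 12, primordial germ cell-like cells (a cluster that is also led by the streak genes Mesp1 and Mixl1) and cluster 14 followed at 318 to 324 CPM, with overlapping ranges from each to the next. Cdx2 reached further into other tissues than the remaining genes, with 211 ± 14.1 CPM in notochord-like, 179 ± 19.2 in ExE mesoderm-like, 116 ± 19.3 in allantois-like and 82.4 ± 5.39 in gut-like cells. In the gut-like class the level lay mainly in cluster 18, led by Nepn, Apela and Mnx1, where both WT host libraries had 191 to 209 CPM. The gut-like cluster 19, led by the foregut gene Pax9, had 5.25 and 0.461 CPM.

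Cdx1 and Nkx1-2 were highest in cluster 12. Cdx1 had 377 ± 136 CPM there and 252 ± 98.8 in caudal progenitor-like cells, and the ranges of these groups overlapped. Nkx1-2 had 123 ± 22.5 CPM in cluster 12 and 109 ± 3.26 in caudal progenitor-like cells, which also overlapped, and then dropped to 34.8 CPM or less in every other class. In spinal cord-like cells Cdx1 was at 18.9 ± 5.42 and Nkx1-2 at 7.06 ± 0.653 CPM. In cardiomyocyte-like and forebrain-like cells, which should lack these genes, the WT host means were 0.905 to 10.0 CPM.

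**Figure D1:**
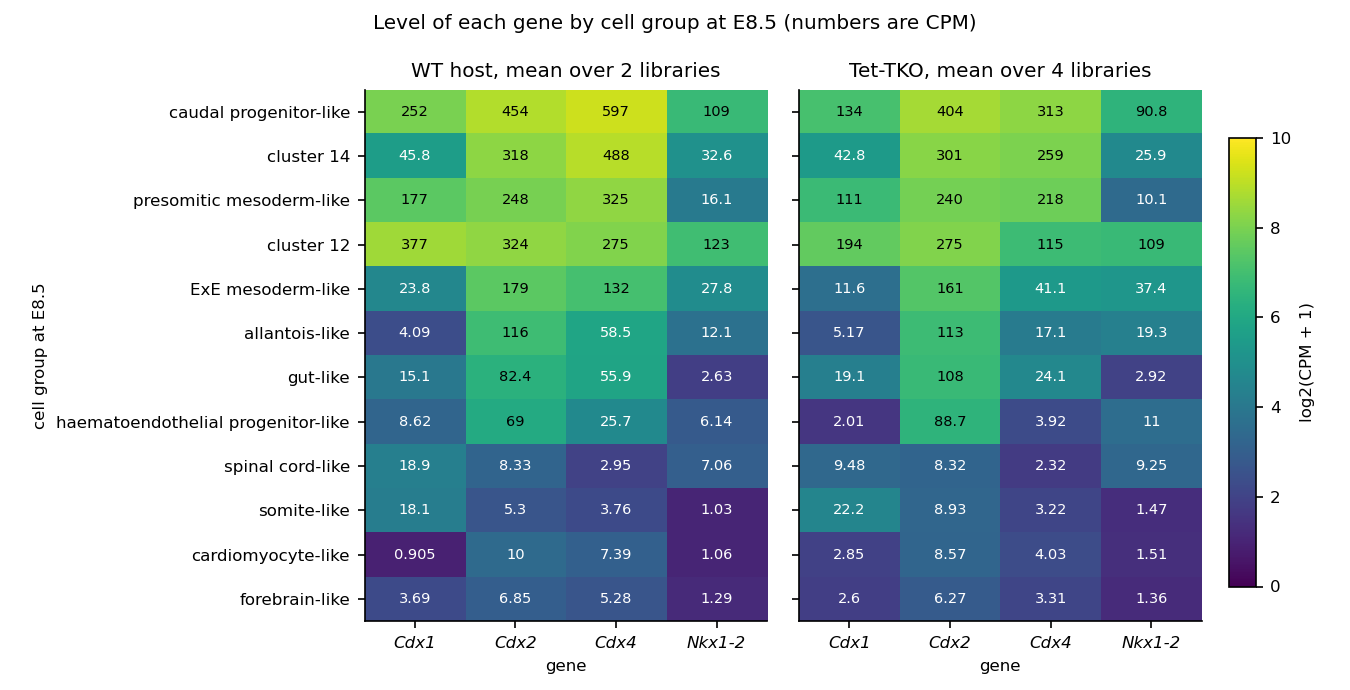
Mean level in CPM of Cdx1, Cdx2, Cdx4 and Nkx1-2 (columns) in 12 cell groups at E8.5 (lines of the grid), with WT host cells on the left and Tet-TKO cells on the right, coloured by log2(CPM + 1). The highest level of each gene lies in one of the 4 caudal groups at the top, and the Cdx4 column is lower in Tet-TKO cells from caudal progenitor-like (313 against 597) to haematoendothelial progenitor-like cells (3.92 against 25.7).

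Apart from the members, the genes whose WT host levels followed those of each member most closely were largely genes of the Hox clusters and their flanks. Over 27 classes and 8884 genes, Cdx4 was closest to Evx1, a homeobox gene beside the HoxA cluster, with Pearson's r of 0.97 on log2(CPM + 1), then to Evx1os (0.97), Hoxaas3 (0.96), Hoxb9 and Hoxc6. Cdx2, apart from Cdx4, was closest to Evx1os and Evx1, with r of 0.90 for each, then to Hoxc8, Hoxa7 and Hoxc6. Cdx1 was closest to Hoxa3, with r of 0.89, then to Hoxaas3, Hoxb5os, Hoxc4 and Hoxb9. Nkx1-2 was closest to Hoxc4 and Hoxb5os, with r of 0.91 for each, followed by Lhpp with r of 0.90, Hoxaas3 and Hoxb9. Lhpp, which encodes a phosphatase, starts 11001 bases from Nkx1-2, at chr7:132610638-132706420 on the opposite strand. Among the members themselves r ran from 0.69 for Cdx1 and Cdx2 to 0.91 for Cdx2 and Cdx4. All points come from the same 2 libraries, and the values describe these classes only.

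At E8.5 Cdx4 had lower means in Tet-TKO than in WT host cells in the 4 caudal groups and in allantois-like, ExE mesoderm-like and haematoendothelial progenitor-like cells, by 1.48-fold to 3.39-fold and, in the last of these, by 6.44-fold with Tet-TKO counts at background, whereas Cdx2 in these 7 groups differed by 1.28-fold at most. In mesenchyme-like cells, another extraembryonic mesoderm class, the mean of Cdx2 was higher in Tet-TKO by 2.37-fold. Cdx4 was near background there, at 1.54 to 6.83 CPM in the Tet-TKO and 4.57 and 14.8 CPM in the WT host libraries, with overlap. Cdx4 was the only member called in any class in this fit. In the edgeR quasi-likelihood test on summed counts, where a call needs an adjusted p under 0.01 together with a log2 difference of at least 1 in size, 87 pairs of a member and a class could be tested in 25 classes, and 13 further pairs did not pass the filter on low counts. Of the 87 pairs 3 were called, all of them Cdx4 and all lower in Tet-TKO, against 0.396% of all pairs of a gene and a class called lower. At the adjusted p alone 5 pairs passed, again all Cdx4 and lower, against 0.423% of all pairs. Across its 24 tested classes Cdx4 was lower in 22, with a median log2 difference of -0.81. The median of Cdx2 over 24 classes was 0.01, that of Cdx1 over 23 classes -0.45, and that of Nkx1-2 over 16 classes 0.38. These counts and medians take in classes near background. Among classes with at least 20 CPM in WT host cells, Cdx4 was lower in 11 of 12 and Cdx2 in 9 of 14. At that minimum Cdx1 was lower in 7 of 9 and Nkx1-2 in 3 of 5. The median over all genes lay between -0.01 and 0.03 in each of the 25 classes.

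In caudal progenitor-like cells the Tet-TKO libraries had 297, 313, 333 and 308 CPM of Cdx4, and the WT host libraries 576 and 618. All 4 Tet-TKO libraries thus lay together, far below both WT host libraries. The log2 difference was -0.92 ± 0.11 (SE), with an edgeR adjusted p of 0.00137, which passed the p but not the fold of a call. At that p alone 0.29% of the genes of this class were lower.

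Cluster 14 gave nearly the same difference. The Tet-TKO libraries had 225, 266, 275 and 271 CPM of Cdx4 and the WT host libraries 459 and 517, without overlap. The log2 difference was -0.90 ± 0.12, with an edgeR adjusted p of 0.00277, past the p and short of the fold, as 0.492% of the genes of the cluster were in this direction at that p. In presomitic mesoderm-like cells, the next step of paraxial mesoderm, the Tet-TKO libraries had 176, 232, 273 and 192 CPM and the WT host libraries 288 and 361. These groups did not overlap either, but the log2 difference of -0.57 ± 0.18 did not pass, with an edgeR adjusted p of 0.318.

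In cluster 12, the group with markers of both caudal progenitors and spinal cord, Cdx4 was called lower. The Tet-TKO libraries had 96.7, 97.9, 142 and 122 CPM, and the WT host libraries 234 and 317. Libraries 3 and 4 were the higher of the Tet-TKO libraries and still lay below both WT host libraries. The log2 difference was -1.25 ± 0.16 (edgeR adjusted p = 0.00762), in a cluster where 0.205% of genes were called lower.

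Larger fold differences of Cdx4 were found in allantois-like, haematoendothelial progenitor-like and ExE mesoderm-like cells, where its level was lower than in the caudal groups. Cluster 3, led by Lhx1, Osr1 and Alx1, also had a larger one, with 17.1, 18.6, 5.95 and 6.29 CPM in the Tet-TKO and 71.1 and 41.4 CPM in the WT host libraries, without overlap. Its log2 difference was -2.22 ± 0.49 (edgeR adjusted p = 0.108) and did not pass, and libraries 3 and 4 lie within the 0.237 to 7.78 CPM of Tet-TKO cardiomyocyte-like and forebrain-like cells, which should lack the gene, so its size is uncertain. In endothelium-like (1.73-fold) and blood progenitor-like cells (1.14-fold) the genotypes overlapped, with Cdx4 near background in both. The WT host libraries had 2.66 and 8.58 CPM in the first and 2.03 and 1.21 in the second. WT host cardiomyocyte-like and forebrain-like cells had 4.28 to 9.63 CPM, so a difference in these 2 classes could hardly be seen. In allantois-like cells, the precursor of the umbilical vessels, the Tet-TKO libraries had 19.9, 14.4, 20.4 and 13.8 CPM, and the WT host libraries 58.8 and 58.2. The groups were far apart. The log2 difference was -1.76 ± 0.19 (edgeR adjusted p = 0.00272), and 0.468% of genes were called lower in this class. Within the class, most Cdx4 RNA lay in cluster 1, led by Tbx4 and the posterior Hox genes Hoxa10 and Hoxa11. There the Tet-TKO libraries had 22.5 to 29.6 CPM and the WT host libraries 92.3 and 117, with a log2 difference of -1.98 ± 0.15 and an edgeR adjusted p of 0.000490, where 0.353% of genes were called lower.

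In haematoendothelial progenitor-like cells, marked by Etv2 and Kdr, the precursors of blood and endothelium, Cdx4 was called lower. The Tet-TKO libraries had 3.0, 3.83, 7.38 and 1.46 CPM of Cdx4, from 18, 21, 19 and 2 UMIs, and the WT host libraries 26.6 and 24.8 CPM, from 85 and 56 UMIs. These Tet-TKO values do not stand above the same background of 0.237 to 7.78 CPM, and the size of the fold is uncertain. The log2 difference was -2.69 ± 0.34 (edgeR adjusted p = 0.00244), against 0.411% of genes called lower in this class. With doublets removed the call was lost (edgeR adjusted p = 0.0107, log2 difference of -2.76). In ExE mesoderm-like cells the Tet-TKO libraries had 20.1, 38.2, 55.8 and 50.1 CPM and the WT host libraries 106 and 159. The groups did not overlap, but the log2 difference of -1.74 ± 0.32 did not pass, with an edgeR adjusted p of 0.0660. It was called without Tet-TKO library 1 (edgeR adjusted p = 0.00918), by DESeq2 (adjusted p = 9.33e-06), with no filter on low counts and with a replicate block. No filter and the block called 1.38% and 2.72% of all pairs of a gene and a class, against 0.676%. The block matches libraries by number and rests on libraries 1 and 2 alone.

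In the gut-like class Cdx4 was at 22.5, 50.2, 14.2 and 9.49 CPM in the Tet-TKO and at 50.7 and 61.1 CPM in the WT host libraries. The 4 Tet-TKO libraries lay below both WT host libraries, Tet-TKO library 2 only just so, and the log2 difference of -1.11 ± 0.47 did not pass (edgeR adjusted p = 0.365). It was called with no filter on low counts (edgeR adjusted p = 1.76e-07), a setting that called 1.38% of all pairs, against 0.676%. In the posterior gut-like cluster 18 the values were 61.1, 90.0, 29.5 and 17.8 against 131 and 159 CPM, with an edgeR adjusted p of 0.122.

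The calls, though not the sizes of the differences, need both WT host libraries. With 1 of them left out, the WT host arm holds 1 library, which is assumed to vary as the Tet-TKO libraries do. Without WT host library 1, the edgeR adjusted p of Cdx4 rose to 0.0601 in allantois-like cells, 0.0365 in cluster 12, 0.0808 in haematoendothelial progenitor-like cells, 0.0398 in caudal progenitor-like cells and 0.0470 in cluster 14. Without WT host library 2 it was 0.0443, 0.16, 0.0410, 0.0989 and 0.116 in the same order. The differences themselves stayed between -2.75 and -0.83 on the log2 scale in these 10 fits. In cluster 12, the call was also lost without Tet-TKO library 1 (adjusted p = 0.0120), library 2 (0.0163) or library 3 (0.0146). It was lost as well under the other clusterings, where cluster 12 was best matched by the caudal progenitor-like class, with a log2 difference of -0.84 at resolution 1 (adjusted p = 0.108) and -0.83 with no correction between libraries (adjusted p = 0.0254). Cdx4 is X-linked, and Xist, the RNA that marks an inactive X chromosome, fell by 6.59 on the log2 scale in caudal progenitor-like cells. Over the 341 X-linked genes tested in these cells the median log2 difference was 0.02 and 2 were called lower. Xist was lower in every class where it was tested, with log2 differences of -10.3 to -2.89. The state of the X chromosome therefore cannot be told apart from genotype.

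**Figure D2:**
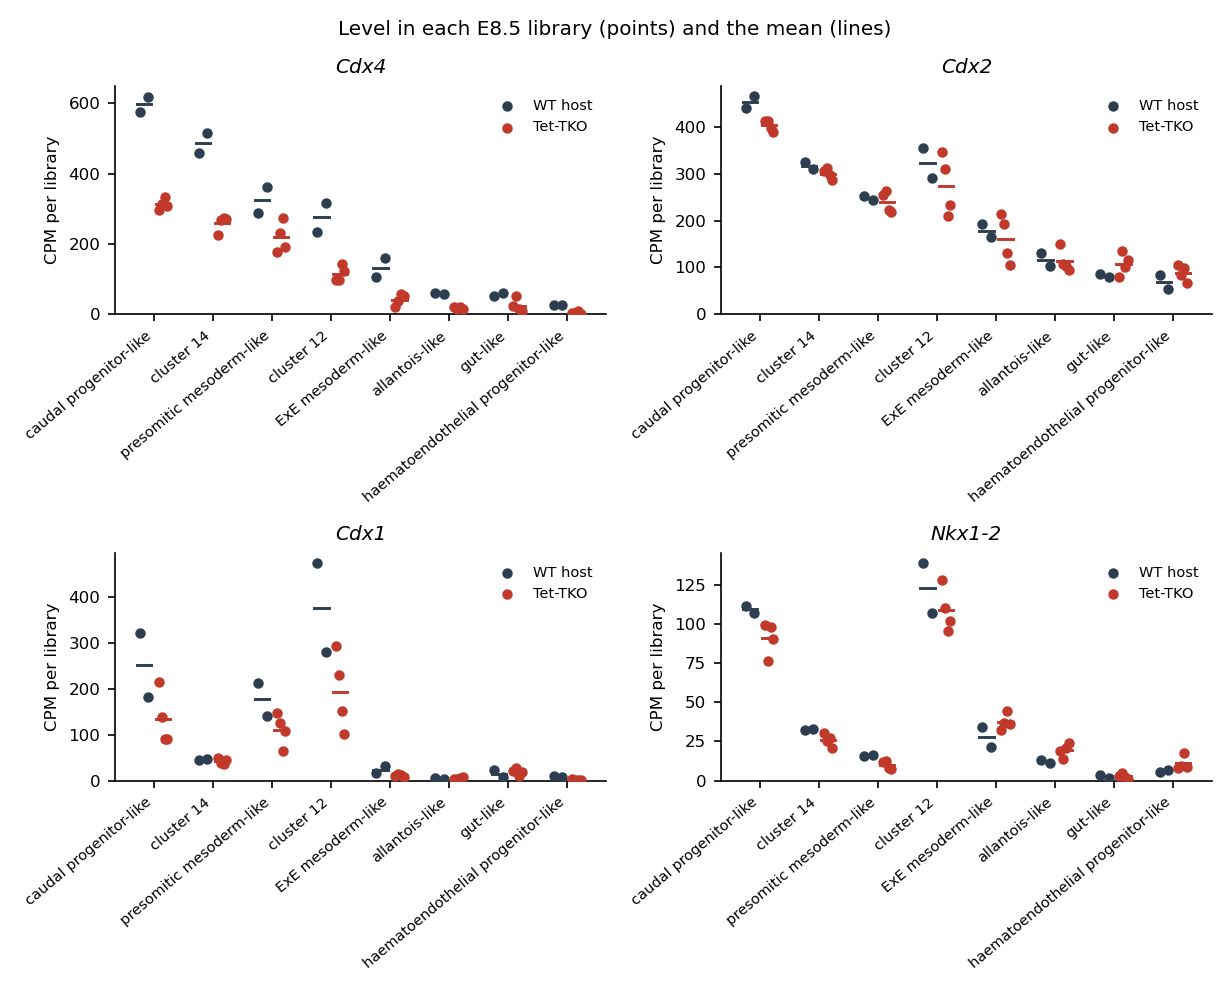
Level in CPM of each gene in each E8.5 library (points, 4 Tet-TKO and 2 WT host) and the mean of the libraries (lines), in 8 cell groups. The Tet-TKO points of Cdx4 lie below both WT host points in every group drawn, while those of Cdx2 mostly overlap them.

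For Cdx2 no class gave a call in either direction in the fit above. In caudal progenitor-like cells the Tet-TKO libraries had 414, 413, 398 and 390 CPM and the WT host libraries 441 and 468. The groups did not overlap, yet the gap was small, with a log2 difference of -0.15 ± 0.12 (edgeR adjusted p = 0.684). In cluster 14 the Tet-TKO libraries had 306, 312, 298 and 286 CPM against 325 and 311, and the log2 difference was -0.06 ± 0.12. The libraries of the genotypes overlapped there, as they did in allantois-like cells, where the log2 difference was -0.03 ± 0.23.

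Cdx2 had higher means in Tet-TKO mesenchyme-like and erythroid-like cells, without passing the test. In mesenchyme-like cells, marked by Postn and collagens, the Tet-TKO libraries had 77.7, 60.5, 47.2 and 52.5 CPM and the WT host libraries 35.4 and 13.3. The groups did not overlap, and the log2 difference was 1.25 ± 0.40 (edgeR adjusted p = 0.141). It was called with no filter on low counts (edgeR adjusted p = 5.36e-08) and with a replicate block (edgeR adjusted p = 3.43e-09). These settings called 1.38% and 2.72% of all pairs of a gene and a class, against 0.676%. In erythroid-like cells, of which only Tet-TKO libraries 2 and 3 held enough for the fit (40 and 11 cells), Cdx2 was at 66.5 and 20.8 CPM against 11.7 and 8.68 in the WT host libraries, from 47 and 13 UMIs in the Tet-TKO libraries. That log2 difference was 1.85 ± 0.42 (edgeR adjusted p = 0.0377), and it was called when either WT host library or Tet-TKO library 3 was left out, each of which leaves an arm of 1 library whose spread is taken from the others. The other members had higher Tet-TKO means in these few cells too, with log2 differences of 2.46 ± 0.67 for Nkx1-2 (edgeR adjusted p = 0.0640), 1.42 ± 0.70 for Cdx1 and 0.57 ± 0.63 for Cdx4, and none passed. In gut-like cells the log2 difference was 0.43 ± 0.20 (edgeR adjusted p = 0.408), and in cluster 18 alone the libraries overlapped at 187 to 236 against 191 to 209 CPM.

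Cdx1 (ENSMUSG00000024619, chr18:61018862-61036199 on the minus strand of GRCm38) had lower means in Tet-TKO cells in the caudal groups, but none passed the test and its libraries were widely spread. In caudal progenitor-like cells the Tet-TKO libraries had 215, 138, 91.6 and 90.6 CPM and the WT host libraries 322 and 182. In cluster 12 they had 292, 231, 152 and 101 CPM against 473 and 281. In both groups Tet-TKO libraries 1 and 2 were above libraries 3 and 4, WT host library 1 was above library 2, and the genotypes overlapped at Tet-TKO library 1 and WT host library 2. The log2 differences were -0.88 ± 0.35 and -0.92 ± 0.39, with edgeR adjusted p of 0.395 and 0.477. In cluster 14 the log2 difference was -0.08 ± 0.18. Libraries 3 and 4 are the ones with fewer and deeper cells, and the part of that difference in the Cdx1 values was not tested. Mean Cdx1 was lower without overlap in spinal cord-like (9.48 against 18.9 CPM), ExE mesoderm-like (11.6 against 23.8) and haematoendothelial progenitor-like cells (2.01 against 8.62). In notochord-like cells it was higher without overlap (44.8 against 13.2). None passed, and the share over all genes was not counted. No filter called the haematoendothelial progenitor-like difference, and the block that and the notochord-like one, at 1.38% and 2.72% of all pairs, against 0.676%.

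Nkx1-2 differed little in the groups where it was high. In cluster 12 the Tet-TKO libraries had 128, 110, 95.5 and 102 CPM and the WT host libraries 139 and 107, and the genotypes overlapped. In caudal progenitor-like cells the values were 99.3, 76.2, 97.7 and 90.2 against 111 and 107 CPM, all Tet-TKO libraries lying below both WT host libraries. The log2 differences were -0.15 ± 0.18 and -0.25 ± 0.15, with edgeR adjusted p of 0.825 and 0.577. In allantois-like cells Nkx1-2 was at 18.7, 13.9, 20.8 and 23.9 CPM in the Tet-TKO and at 12.9 and 11.3 CPM in the WT host libraries, the direction opposite to that of Cdx4 there. That log2 difference was 0.64 ± 0.21 (edgeR adjusted p = 0.20), and it did not pass.

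**Figure D3:**
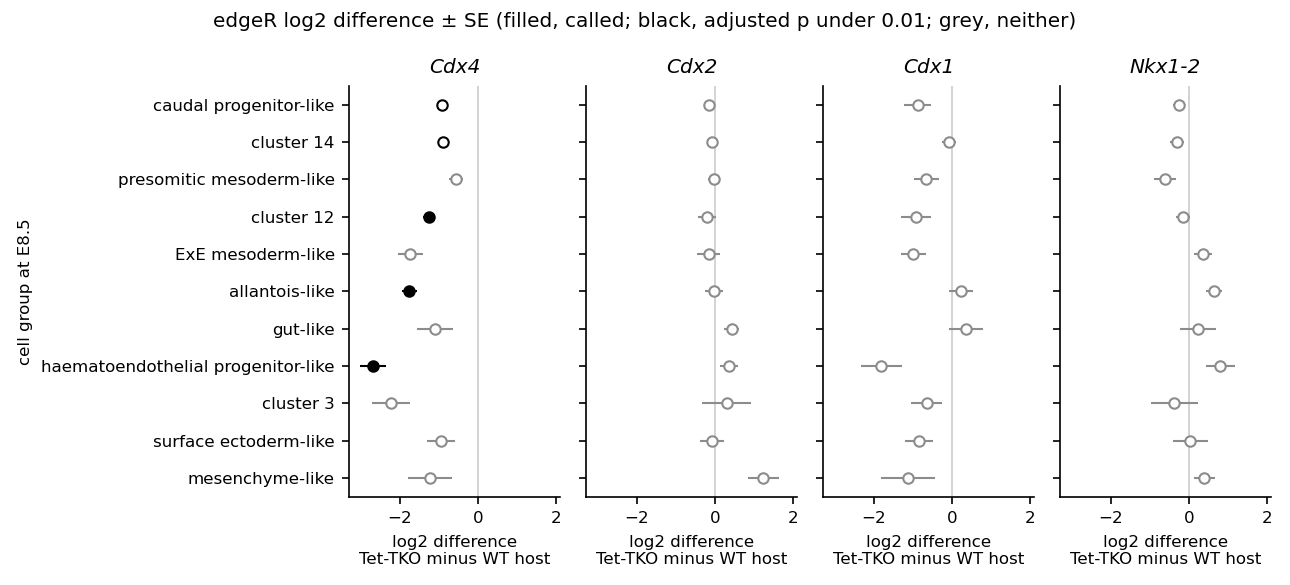
Log2 difference, Tet-TKO minus WT host, with its standard error (bars) from edgeR for each gene in 11 cell groups at E8.5. Filled points are calls, black open points passed the adjusted p alone, and grey points passed neither. Every Cdx4 point drawn lies to the left of 0, and the Cdx2 points of the 4 caudal groups lie between -0.20 and -0.03.

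The ratio of Cdx4 to Cdx2 UMIs is counted within a library and does not depend on how libraries are scaled. In caudal progenitor-like cells it was 0.717, 0.758, 0.837 and 0.789 in the Tet-TKO and 1.31 and 1.32 in the WT host libraries. In cluster 14 it was 0.735, 0.855, 0.921 and 0.947 against 1.41 and 1.66. In presomitic mesoderm-like cells the genotypes overlapped, with 0.691, 0.880, 1.22 and 0.882 against 1.14 and 1.49, and in cluster 12 with 0.278, 0.316, 0.681 and 0.522 against 0.659 and 1.08. Tet-TKO library 3 had the highest ratio of the Tet-TKO libraries in 3 of these 4 groups.

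The share of cells in which a gene was seen at all was compared after thinning each cell to 5000 UMIs, leaving out shallower cells (0 to 23 per library in caudal progenitor-like cells). Cdx4 was seen in 70.7%, 71.0%, 81.8% and 82.4% of caudal progenitor-like cells in the Tet-TKO libraries, and in 91.7% and 87.7% in the WT host libraries. Most Tet-TKO cells of this class thus still held Cdx4 RNA. In allantois-like cells the shares were 7.59%, 5.04%, 7.73% and 6.94% against 19.5% and 20.8%. In forebrain-like cells, which should lack the gene, they were 0% to 2.08%, so both groups lie above that background. With 4 libraries against 2, the two-sided exact permutation test cannot give a p below 0.133, and it gave 0.133 for both groups of cells. Cdx2 was seen in 87.2% ± 2.56 (SD, n = 4) of Tet-TKO and 86.4% ± 7.44 (n = 2) of WT host caudal progenitor-like cells.

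Cells with and without Cdx2 were also compared within one library, as a description. In the caudal progenitor-like cells of Tet-TKO library 2, the largest set, 71.8% of the 273 cells with Cdx2 also held Cdx4, and 65.9% of the 41 cells without it. In WT host library 2 the shares were 86.9% of 99 and 91.3% of 23 cells. Nkx1-2 was seen in 27.5% of the cells with Cdx2 in the first of these libraries and in 40.4% in the second.

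**Figure D4:**
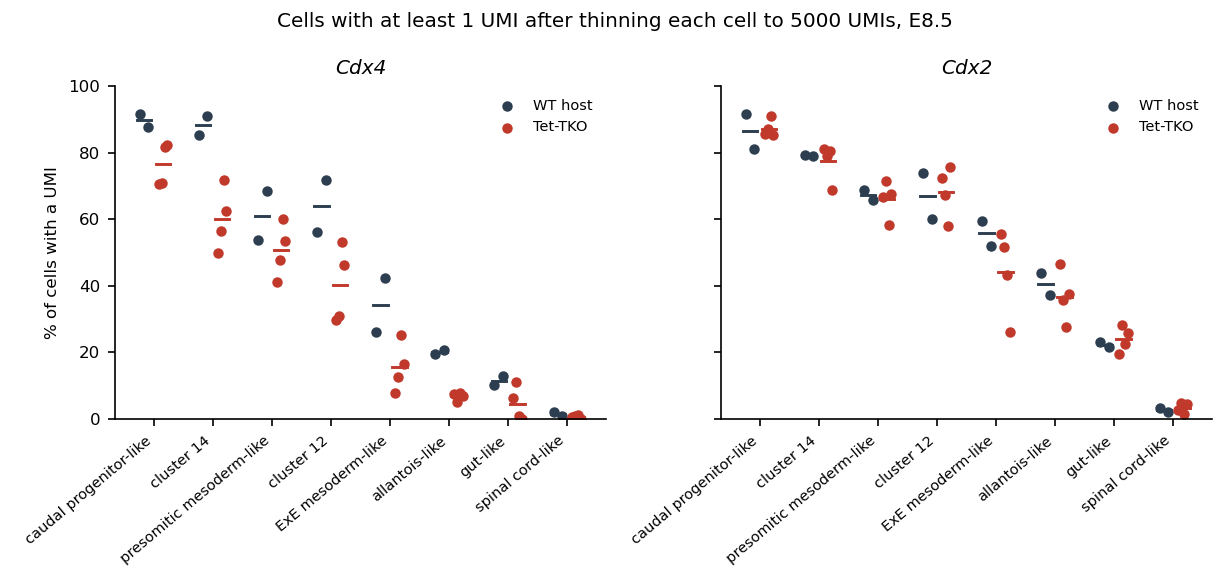
Share of cells in percent with at least 1 UMI of Cdx4 (left) or Cdx2 (right) in each E8.5 library after thinning each cell to 5000 UMIs, with the mean of the libraries as a line. For Cdx4 in caudal progenitor-like cells the Tet-TKO libraries sit between 70.7% and 82.4% and the WT host libraries at 87.7% and 91.7%, while for Cdx2 the genotypes overlap there.

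Over all cells of a library the picture differed from that within classes, and no member was called by edgeR without a replicate block. With the block Cdx2 and Nkx1-2 were called, as were 8.06% of all genes. Cdx4 was at 43.5, 50.1, 49.2 and 44.4 CPM in the Tet-TKO and at 44.4 and 46.3 CPM in the WT host libraries, with overlap and a log2 difference of -0.04 ± 0.12. Nkx1-2 was at 17.0, 16.9, 14.7 and 16.3 against 8.74 and 7.23 CPM, with a log2 difference of 0.95 ± 0.16 (edgeR adjusted p = 0.0141). Cdx2 was at 129, 112, 77.1 and 78.9 against 64.6 and 44.9 CPM, with a log2 difference of 0.80 ± 0.32 (edgeR adjusted p = 0.163). At an unadjusted p of 0.05, 2 of the 4 members passed here, as did 26.7% of all genes, and 2.65% of all genes were called. DESeq2 likewise called no member, although Nkx1-2 passed its adjusted p (1.61e-05) with a difference short of the fold of a call. Over all cells, more cells of a type and more RNA per cell cannot be told apart. The make-up of the libraries moved with these values. The 4 caudal groups (caudal progenitor-like cells, clusters 12 and 14, and presomitic mesoderm-like cells) made up 14% to 17.6% of the Tet-TKO and 7.35% and 7.78% of the WT host cells. Erythroid-like cells, which hold little of these RNAs, made up 0.0568% to 0.595% and 8.32% and 21.0%. ExE mesoderm-like cells made up 4.12% to 6.46% against 0.786% and 1.21%, mesenchyme-like cells 6.66% to 7.70% against 2.99% and 3.53%, and allantois-like cells 7.34% to 18.0% against 4.88% and 8.17%. The part of all these shares in the values over all cells was not tested. One alternative left out erythroid-like, ExE endoderm-like and ExE ectoderm-like cells, but kept the other classes named here.

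At E7.5, with 1 library of each genotype, no test was possible, and the 95% exact Poisson intervals given cover counting error only. Cdx4 was detected mainly in mesoderm. Its level was 68.3 CPM (63.5 to 73.3) in Tet-TKO and 180 CPM (164 to 197) in WT host cells of cluster 4 of this stage, led by Isl1, Hoxb1 and Gdf10. In allantois-like cells it had 73.5 CPM (63.8 to 84.2) against 139 (121 to 159), and in ExE mesoderm-like cells 11.5 (9.48 to 13.9) against 44.2 (35.4 to 54.4). The Tet-TKO value was the lower one in all 4 groups with at least 20 CPM in WT host cells and 30 cells of each genotype, and the intervals were separate in each. By the same rule, over 115167 pairs of a gene and a class, 59.8% were lower in Tet-TKO. Intervals were separate with the Tet-TKO value lower in 9.35% and higher in 6.04%. The minimum is set on the WT host level alone, and its part in these shares was not tested.

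Cdx1 at E7.5 was lower in the Tet-TKO library in the groups where it was high. In cluster 22 of this stage, led by Hes7, Apln, T and Fgf17, it had 107 CPM (92.9 to 123) in the Tet-TKO and 356 CPM (333 to 380) in the WT host library. In the spinal cord-like cells of this stage, which are led by Hes3 and Gbx2 as cluster 12 was at E8.5 and took their name with 6 of 10 markers raised, it had 36.2 CPM (29.2 to 44.5) against 160 (150 to 171), and in presomitic mesoderm-like cells 45.1 (37.7 to 53.5) against 177 (163 to 193). Of the 9 groups that met the same minimum, Cdx1 was lower in the Tet-TKO library in 8, and in 7 of them the intervals were separate, against 59.8% of all pairs lower and 9.35% lower with separate intervals.

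Cdx2 at E7.5 differed in both directions between the genotypes. It had 412 CPM (389 to 436) in Tet-TKO and 399 (368 to 433) in WT host allantois-like cells, and 279 (256 to 304) against 359 (336 to 383) in cluster 22. It was higher in WT host cells in 6 and lower in 10 of the 16 groups that met the minimum, with separate intervals in 2 groups in each direction, against 9.35% and 6.04% of all pairs. In ExE ectoderm-like cells, the trophoblast compartment in which Cdx2 is known to act, the WT host library had 132 CPM (128 to 136) from 1878 cells. Only 14 Tet-TKO cells fell there, so no comparison was made. Nkx1-2 had 113 CPM (98.4 to 129) against 168 (152 to 184) in cluster 22 and 87.6 (76.4 to 99.9) against 142 (132 to 152) in spinal cord-like cells, lower in the Tet-TKO library in 7 of 8 groups, 5 of them with separate intervals, against the same shares of all pairs.

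**Figure D5:**
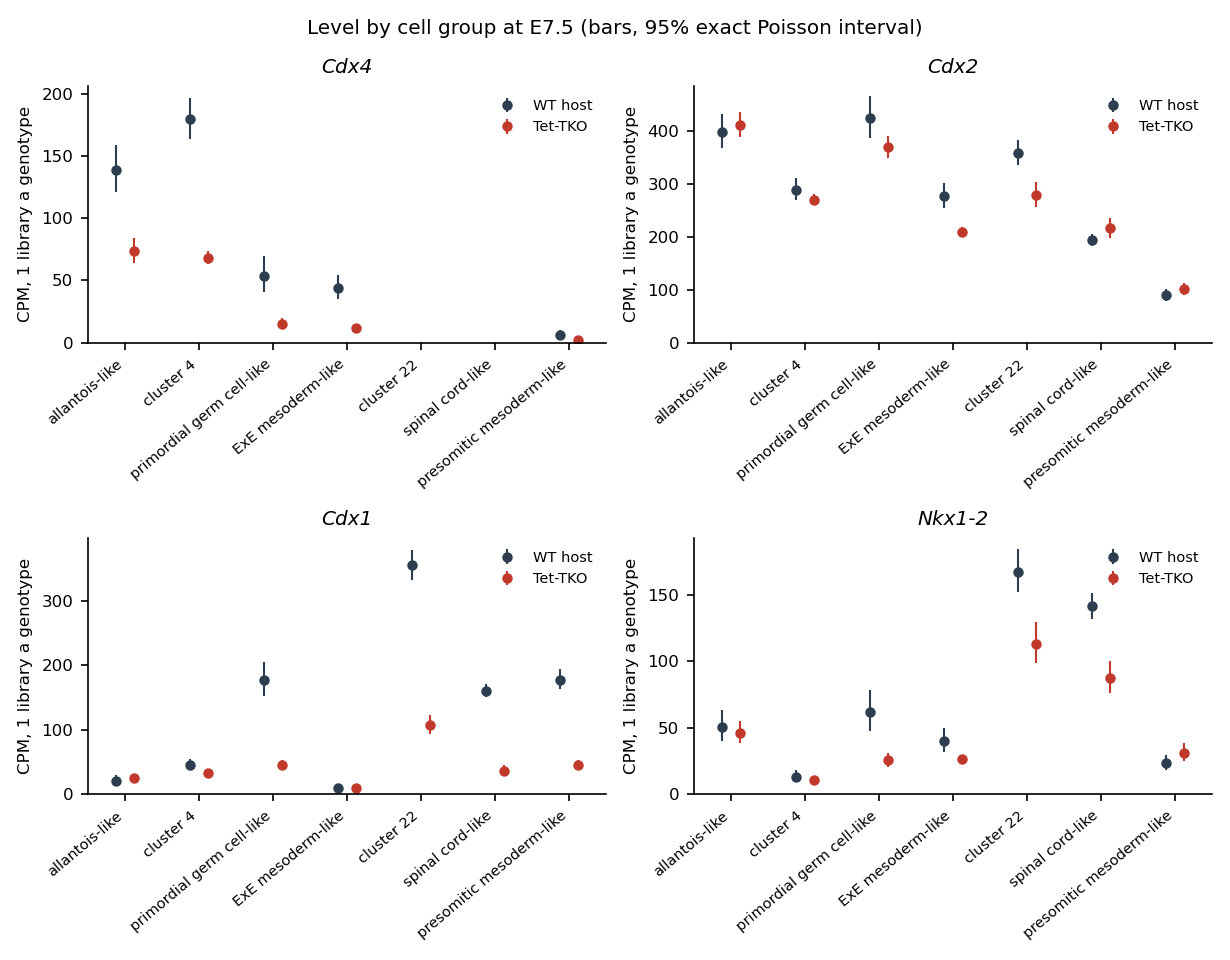
Level in CPM of each gene in 7 cell groups at E7.5, with 1 library of each genotype, and 95% exact Poisson intervals as bars. Pairs in which a library had fewer than 4 UMIs are not drawn. Cdx4 and Cdx1 are lower in the Tet-TKO library in the groups where they are high, as for Cdx1 in cluster 22 at 107 against 356 CPM.

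The genes that act before and after the Cdx genes were described by lists. The list of 22 Wnt, FGF and retinoid genes holds ligands such as Wnt3a and Fgf4, receptors and targets such as Axin2. In caudal progenitor-like cells 21 of them were tested and none passed edgeR at the adjusted p (the smallest was 0.391, and 3 had an unadjusted p under 0.05), 9 being lower and 12 higher. Their median log2 difference was 0.06, beside 0.02 for all genes. The largest differences there were those of Tcf7l1, a repressor of Wnt targets, at 1.15 ± 0.48, of the Wnt inhibitor Notum at -0.83 ± 0.33, and of the retinoic acid enzyme Aldh1a2 at 0.49 ± 0.59.

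Of the 15 trunk Hox genes, which Cdx proteins are known to activate, 14 were tested in caudal progenitor-like cells and 1 was called, Hoxa7, which fell by 1.25 ± 0.17 on the log2 scale (edgeR adjusted p = 0.00340), against 0.23% of genes called lower in this class. Of the 14 genes, 8 were lower and 6 higher, with a median of -0.14, and Hoxa9 was next at -1.03 ± 0.30 (edgeR adjusted p = 0.193). In the other classes none passed the test, and the number lower and higher was 12 and 3 in allantois-like, 8 and 6 in gut-like, 5 and 9 in presomitic mesoderm-like, 1 and 7 in somite-like and 1 and 10 in spinal cord-like cells. The median log2 differences, in the same order, were -0.19, -0.02, 0.09, 1.74 and 0.67, beside 0.01 to 0.02 for all genes. Differences between these classes were not tested. Across the 6 caudal, somite, neural, allantois and gut classes chosen for the lists, 194 pairs of a list gene and a class were tested, and Hoxa7 in caudal progenitor-like cells was the only call. This is 0.515% of the pairs, beside 0.676% of all pairs of a gene and a class called at E8.5. It was not called without WT host library 1 or without WT host library 2, and 0 list genes were called in either fit. The ParaHox and Nkx1 relatives Gsx1, Gsx2, Pdx1 and Nkx1-1 did not pass the filter on low counts in any of these 6 classes.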

How the data were processed

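Single-cell RNA was counted in 8 libraries by 10x 3′ sequencing. Per the methods and the deposited file headers, the authors mapped reads to mm10 with the GRCm38.92 annotation plus tdTomato using Cell Ranger (version 3.1.0 in the headers, another in the methods) and deposited, for each gene in each barcode, the raw count of UMIs without scaling. The members and gene lists were chosen with earlier results of these data known.

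Cells were kept from 1500 UMIs upwards, up to a share of 30% mitochondrial and of 35% ribosomal counts. Doublets were kept, and removing them was an alternative. Per stage, cells were clustered on 2500 variable genes (without the members and list genes), 50 principal components, mutual nearest neighbour correction (k of 20) and Leiden clustering at resolution 2 on 15 neighbours (scanpy 1.11.5, leidenalg 0.10.2). A class needed at least 3 markers raised by a log2 of 1 and a lead of 0.2 over the next class. The classes were rebuilt and are not the study's own labels, so differences from it may come from them.

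Counts were summed per class and library (at least 10 cells, both genotypes with 2 libraries) and tested with edgeR 4.0.16 (R 4.3.3) by its quasi-likelihood test, with TMM scaling, its default filter on low counts and Benjamini-Hochberg adjustment over all genes of a class. CPM is the UMIs of a gene per 1000000 UMIs of a sum. DESeq2 1.42.0 was an alternative. On simulated counts of caudal progenitor-like cells, 200 of 9756 genes, drawn from those of at least 50 CPM, were changed by a log2 of 1.5. There edgeR called 99% of them with 0 false calls, which says nothing of genes at lower levels or of smaller differences. The simulated counts were drawn with edgeR's own dispersion, so they met the model of the test. Intervals are exact, at 95%, and cover counting error only. Members were tested in every class where they passed the filter on low counts, and the text gives a part of these classes. Genes of like pattern were the 5 with the highest correlation among genes of at least 20 CPM in some class, and list genes were named if called in a caudal class, otherwise the 3 largest differences in caudal progenitor-like cells. Hoxa9 was named after its values were seen.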

Additional observations from a re-analysis of the deposited data

Results flagged for a closer look

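In cluster 14, Tet-TKO library 1 had 225 CPM of Cdx4, far below the other 3 Tet-TKO libraries, which had 266 to 275 CPM. Of 26 groups of 4 libraries 1 had a library so far from the rest, and since chance gives about 1 in 20, such a group is no more than chance gives. Without that library the Cdx4 difference in cluster 14 was -0.85 on the log2 scale (edgeR adjusted p = 0.00557).

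Cdx2 did not overlap between genotypes in 1 class with a lower and 2 with a higher Tet-TKO mean, of 24 tested. With 4 libraries against 2, a share of 0.133 of the 15 possible splits separates the genotypes fully. That share is larger in erythroid-like cells, where only Tet-TKO libraries 2 and 3 entered. Some classes without overlap are therefore expected by chance, and the share over all genes was not counted, so this count is not a result about Cdx2. Among classes with at least 20 CPM in WT host cells, the 2 without overlap lay in opposite directions, with a log2 difference of -0.15 in caudal progenitor-like and 1.25 in mesenchyme-like cells. Erythroid-like cells, below that level, had a log2 difference of 1.85 without overlap. None of these passed the test on its own, and the difference between the classes was not tested.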

How the results depend on the processing

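Without WT host library 1 or 2, which leaves 1 library in that arm, none of the 3 Cdx4 pairs was called. The number of member and class pairs called with all libraries was 3. The count was 5 with no minimum fold, 11 with no filter on low counts and 9 with a replicate block, settings that called 0.718%, 1.38% and 2.72% of all pairs of a gene and a class, against 0.676%. Of the 41 listed genes, 1 was called, and DESeq2 gave 2, no filter 8, resolution 1 and no correction between libraries 0 each, and the block 7. Over all cells the block called 2 members, and 8.06% of all genes, where the unblocked fit called 0. The block rests on libraries 1 and 2 alone, since Tet-TKO libraries 3 and 4 have no WT host partner. The numbers were not taken to pair the samples, and the deviations of same-numbered libraries correlated at 0.315 and -0.0449. With 2 WT host libraries these deviations mirror each other (0.315 and -0.315 for Tet-TKO library 1), so the correlations decide little. The paper compares Tet-TKO cell proportions with those of a matching host, but the sample labels do not name the matches. The cause of these changes was not tested.

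For 30 single pairs of a member and a cell group, 466 of 518 values kept direction and side of the threshold, 13 lost it, 9 gained it and 30 changed sign, all of the last from main differences between -0.31 and 0.12 except Cdx4 in cluster 14. Under the block, Cdx2 was at 0.22 in ExE mesoderm-like, 0.21 in allantois-like (adjusted p = 0.00205), 0.10 in cluster 12, 0.025 in cluster 14 and 0.13 in presomitic mesoderm-like cells, Cdx4 at 0.049 over all cells and Nkx1-2 at 0.030 in cluster 12. With no correction between libraries, cluster 14 had Cdx1 at 0.29, Cdx2 at 0.63, Cdx4 at 0.20 and Nkx1-2 at 1.04, in a best-matching cluster with a Jaccard index of only 0.337 to it, and Cdx2 in presomitic mesoderm-like cells was at 0.18. With no filter, Cdx2 was at 0.00227 in allantois-like and 0.00427 in presomitic mesoderm-like cells, and at resolution 1 at 0.10 in allantois-like cells. Without erythroid-like, ExE endoderm-like and ExE ectoderm-like cells, Cdx1 over all cells was at -0.13. Leaving out each library in turn gave both signs for Cdx1 over all cells (-0.21 to 0.52) and in cluster 14 (-0.19 to 0.00434), Cdx2 in ExE mesoderm-like (-0.36 to 0.0117), allantois-like (-0.23 to 0.18) and presomitic mesoderm-like cells (-0.10 to 0.0305), Cdx4 over all cells (-0.10 to 0.0222) and Nkx1-2 in cluster 12 (-0.33 to 0.0694).

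Settings that kept clusters apart or summed libraries were chosen after seeing the data. With Tet-TKO library 1 added to 2, and 3 to 4, the adjusted p of Cdx4 in cluster 12 was 0.0407. Counts of Cdx4 in Tet-TKO haematoendothelial progenitor-like cells were few (2 to 21 UMIs per library).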
